A study of Mus musculus with 5 samples.

Results

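The genes that encode the subunits of glutamate and GABA receptors were compared between mouse neural stem cells (NSCs) and STO fibroblasts. Members were all symbols of the ionotropic glutamate receptor families (AMPA, kainate, NMDA and delta), of the metabotropic glutamate receptors, and of the GABA-A (rho subunits included) and GABA-B receptors. This rule found 47 of the 24843 symbols with a deposited value, and it used no measured value. The NSCs came from C57BL/6 mouse embryonic cortex at E12.5, were grown as monocultures with EGF, bFGF, heparin and B27 for 5 to 8 passages, and had 2 RNA-seq replicates. STO cells are a line of SIM mouse embryonic fibroblasts, labelled C57BL/6, grown for more than 30 passages in DMEM with serum, and had 3 replicates. Neither group carried a treatment or a transgene in the labels. Nothing in the labels says that the replicates were separate cultures, so p-values measure the spread between these samples, which may be technical. Because the cell types also differ in medium, passage and source, these factors and the cell type cannot be told apart.

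Glutamate and GABA are the main excitatory and inhibitory transmitters of the adult brain. AMPA, kainate and NMDA receptors are cation channels assembled from several subunits, metabotropic receptors signal through G proteins, GABA-A receptors are chloride channels made of several subunits, and GABA-B receptors are obligate pairs of GABBR1 and GABBR2. Neural progenitors and glia are known to carry several of these receptors before or without synapses. In immature neural cells, where chloride is high inside the cell, GABA can depolarize rather than inhibit.

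Expression is given as FPKM, fragments per kilobase of transcript, scaled to library depth, summed per symbol. The fragments implied by the deposited confidence intervals came to 15223341 to 22271895 per sample. Differences are in log2(FPKM + 1), NSC minus STO, by limma's moderated test over 12277 symbols with a mean of at least 1 FPKM in a cell type, and a change means a Benjamini-Hochberg adjusted p-value under 0.05. All 8 neural stem cell markers had a mean of at least 1 FPKM in NSCs (summed 3848 and 4063 FPKM), against 0.0509 to 0.0746 FPKM in STO cells. The 6 fibroblast markers summed to 5.00 and 5.10 FPKM in NSCs and to 1328 to 1437 FPKM in STO cells. Of 11 neuronal markers, which summed to 138 and 141 FPKM in NSCs and 12.6 to 13.2 FPKM in STO cells, 6 reached a mean of 1 FPKM in NSCs. Among them Map2 had 100.4 and 102 FPKM and Syn1 18.1 and 21.4 FPKM, while Stmn2, Neurod6, Tbr1 and Dlx5 were between 0 and 0.100 FPKM. Astrocyte markers summed to 70.5 and 71.6 FPKM and those of the oligodendrocyte lineage to 1111 and 1261 FPKM in NSCs. In STO cells these sums were 0.242 to 0.432 and 5.19 to 5.49 FPKM. Most of each NSC sum was 1 gene, Aldh1l1 (47.0 and 45.7 FPKM) and Olig1 (964 and 1108 FPKM), while Gjb6 and Mog were under 1 FPKM. The part of cells of these types in the receptor values was not tested. In bulk RNA a smaller number of cells of a type and less RNA per cell cannot be told apart.

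The 250 bases before the RefSeq start site are shown for 4 members, chosen after their values were seen to set members of high and of low CpG content side by side, with every CpG (C followed by G) in capitals. Gria2 and Gabra2 were among the highest AMPA and GABA-A subunits in NSCs, Gabrg1 neighbours Gabra2 and had a like level, and Gabrp was listed at 0 in all samples. The windows lie in mm9 at chr3:80606758-80607007 (Gria2), chr5:71487089-71487338 (Gabra2), chr5:71233857-71234106 (Gabrg1) and chr11:33478958-33479207 (Gabrp), all on the minus strand and upstream of the gene, and their sequences are those of the RefSeq table of GRCm38.p6, found without a mismatch in mm9.
Gria2: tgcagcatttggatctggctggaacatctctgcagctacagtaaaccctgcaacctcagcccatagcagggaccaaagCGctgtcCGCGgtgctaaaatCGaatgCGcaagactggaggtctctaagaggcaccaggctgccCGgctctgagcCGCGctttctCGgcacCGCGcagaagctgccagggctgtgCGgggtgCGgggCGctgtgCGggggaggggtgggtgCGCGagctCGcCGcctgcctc
Gabra2: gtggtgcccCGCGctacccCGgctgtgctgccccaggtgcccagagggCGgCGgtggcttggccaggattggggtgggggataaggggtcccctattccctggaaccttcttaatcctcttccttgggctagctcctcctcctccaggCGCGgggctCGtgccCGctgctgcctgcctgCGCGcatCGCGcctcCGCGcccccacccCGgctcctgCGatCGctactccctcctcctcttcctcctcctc
Gabrg1: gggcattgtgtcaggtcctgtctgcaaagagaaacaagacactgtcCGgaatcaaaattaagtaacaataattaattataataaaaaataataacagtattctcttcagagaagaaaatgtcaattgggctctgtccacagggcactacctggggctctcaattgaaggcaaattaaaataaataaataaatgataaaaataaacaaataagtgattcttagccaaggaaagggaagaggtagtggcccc
Gabrp: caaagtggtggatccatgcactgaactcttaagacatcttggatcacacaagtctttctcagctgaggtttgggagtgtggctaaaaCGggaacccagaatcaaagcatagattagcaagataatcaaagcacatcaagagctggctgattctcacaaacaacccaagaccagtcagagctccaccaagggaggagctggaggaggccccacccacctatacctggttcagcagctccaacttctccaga
Gria2 held 19 CpGs and Gabra2 18, whereas Gabrg1 and Gabrp held 1 each. At the same low CpG number, Gabrg1 had a mean of 9.51 FPKM in NSCs and Gabrp was listed at 0.

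Receptor subunit RNA was higher in NSCs as a whole. Summed over the 47 genes, it was 334 ± 7.53 FPKM (SD, n = 2) in NSCs and 56.4 ± 1.57 FPKM (SD, n = 3) in STO cells. A mean of at least 1 FPKM was reached by 21 members in NSCs and by 6 in STO cells, and by 4 in both, namely Gria1, Gria3, Grik5 and Gabbr1. Of the 23 members that could be tested, 20 rose in NSCs, where 43.7% of all tested symbols did, and 3 fell, where 41.9% did. With a difference of at least 1 in log2(FPKM + 1) also asked for, 18 were higher (21.3% of all tested symbols) and 1 was lower (17.1%). The 18 became 15 with quantile normalization and 19 with a pseudocount of 0.1. With samples scaled to an equal FPKM sum, where 25 members were tested, it was 20. The median difference was 2.66 over the tested members and 0.02 over all tested symbols. Tested members that passed the minimum in 1 cell type only had to differ in level between the cell types, so these counts describe the tested genes and not all 47.

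**Figure D1:**
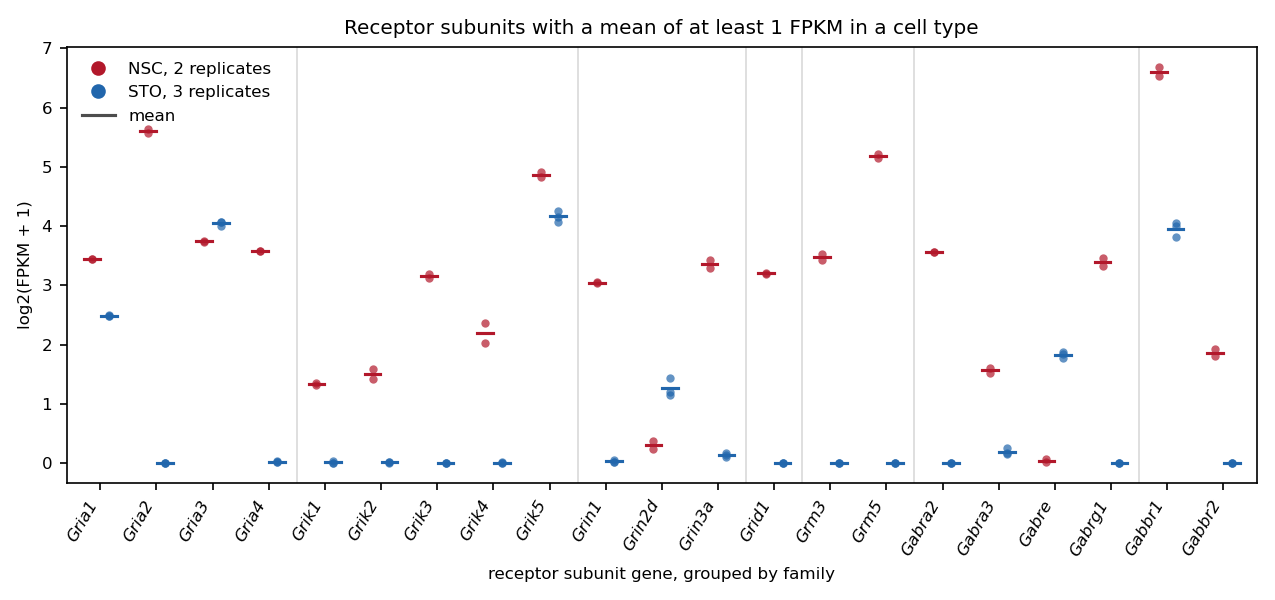
Subunit genes with a mean of at least 1 FPKM in NSCs or STO cells, 21 of the 23, by family; each point is a replicate, in log2(FPKM + 1), and each line is a mean. NSC points lie above STO points for 18 of these genes and below them for Gria3, Grin2d and Gabre.

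Many members with a clear level in NSCs had no value above 0 in STO cells. Of the 21 members with a mean of at least 1 FPKM in NSCs, 9 (42.9%) were listed at 0 in all 3 STO replicates, against 4.59% of all 11392 symbols at that level. With at least 5 FPKM in NSCs, it was 8 of 15 members (53.3%) against 3.21% of 8710 symbols. Among the 9 were Gria2, Grik3, Grid1, Grm3, Grm5, Gabra2, Gabrg1 and Gabbr2. A value listed at 0 can also be a failed estimate of Cufflinks, although every member had the status OK in every sample.

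AMPA receptor subunits carry most fast excitatory transmission, and GRIA2, when edited at its RNA, makes the channel impermeable to calcium. Positions of genes are the listed loci in mm9. Gria2 (chr3:80485372-80606757) had 48.8 and 46.8 FPKM in NSCs and was listed at 0 in STO replicates 1, 2 and 3. The groups were far apart, with a difference of 5.61 ± 0.05 (SE; adjusted p = 4.6e-09, limma). With STO values of 0 the size depends on the pseudocount, and it was 5.55 to 8.90 over the alternatives. Only 2 of its 8 listed transcripts had a value above 0, the larger with 37.9 and 36.6 FPKM and the other with 10.9 and 10.2 FPKM, and they differ in where the listed locus ends at its 3′ side. Gria2 made up 59.0% ± 0.793 of AMPA subunit FPKM in NSCs (SD, n = 2).

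Gria4 (chr9:4417893-4796234) had 10.93 and 10.98 FPKM in NSCs and 0.0271, 0.0165 and 0.0124 FPKM in STO cells. Its NSC values came from 1 of 3 listed transcripts, and each of its STO values rested on under 1 implied fragment. The groups did not overlap, and the difference was 3.55 ± 0.04 (SE; adjusted p = 7.7e-09, limma).

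RNA of the other AMPA subunits was present in both cell types. Gria1 (chr11:56825120-57143746) had 9.85 FPKM in both NSC replicates and 4.60, 4.63 and 4.66 FPKM in STO cells, a ratio of means of 2.13 (difference 0.95 ± 0.05, SE; adjusted p = 4.0e-06, limma). Gria3 (chrX:38754031-39031778) was lower in NSCs, with 12.4 and 12.5 FPKM against 15.1, 15.7 and 15.8 FPKM in STO cells. Its groups did not overlap, but the difference was small at -0.30 ± 0.05 (SE; adjusted p = 0.0015, limma). Gria3 made up 77.0% ± 0.375 of AMPA subunit FPKM in STO cells (SD, n = 3) and 15.3% ± 0.341 in NSCs (SD, n = 2), and Gria1 the remaining 22.9% ± 0.337 in STO cells.

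Only in the promoter of Gria2, among the 32 members with a promoter in the RefSeq table, was the core of the RE1 element found, the sequence bound by the repressor REST. The letters searched were AGCACC, any 2 bases, then GGACAG, on both strands of the 300-base windows, and they were chosen after the promoter had been read. The match lies on the strand opposite to the gene, 157 to 170 bases before its start site, and is shown in capitals with 8 bases on either side as it reads on the strand of Gria2 (chr3:80606906-80606935, mm9).
Gria2 RE1 core: ccaaagcgCTGTCCGCGGTGCTaaaatcga
The core was found in 17 of 32851 windows (0.0517%), which include that of Gad2. A match is a description of letters and does not show a bound site. Rest itself had 5.62 and 6.01 FPKM in NSCs and 15.8, 15.6 and 11.5 FPKM in STO cells, and it fell by 1.15 in log2(FPKM + 1) in NSCs (SE 0.14; adjusted p = 2.7e-04, limma). Whether REST bears on Gria2 in these cells was not tested.

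Among the kainate receptors, GRIK4 and GRIK5 are the high-affinity subunits, which need GRIK1, GRIK2 or GRIK3 to form channels. Grik5 (chr7:25794870-25857388) was the most abundant in both cell types, with 29.2 and 27.3 FPKM in NSCs and 18.1, 16.9 and 15.8 FPKM in STO cells. The NSC values were higher without overlap, and the ratio of means was 1.67 (difference 0.71 ± 0.07, SE; adjusted p = 1.1e-04, limma). In STO cells Grik5 made up 99.8% ± 0.168 of kainate subunit FPKM (SD, n = 3), so the subunits it is known to need were close to 0 there.

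Grik3 (chr4:125168075-125391417) had 8.15 and 7.71 FPKM in NSCs and was listed at 0 in STO cells (difference 3.16 ± 0.05, SE; adjusted p = 1.3e-08, limma). Grik4 (chr9:42328495-42752454) varied more between NSC replicates, at 4.18 and 3.09 FPKM, against 0, 0.0111 and 0.00834 FPKM in STO cells. Grik1 had 1.57 and 1.49 FPKM against 0, 0 and 0.0326 FPKM, and Grik2 had 1.69 and 2.02 FPKM against 0.0126, 0.00731 and 0.0192 FPKM. All 5 kainate subunits rose in NSCs, where 43.7% of all tested symbols did. Those other than Grik5 passed the minimum of 1 FPKM in NSCs only. Summed, the 5 had 43.2 ± 2.2 FPKM in NSCs (SD, n = 2) and 17.0 ± 1.1 FPKM in STO cells (SD, n = 3).

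NMDA receptors contain the obligate subunit GRIN1, and GRIN2 subunits bring the glutamate site, whereas GRIN3A is a glycine-binding modulatory subunit. Grin1 (chr2:25146697-25174707) had 7.31 and 7.21 FPKM in NSCs and 0.0412, 0.00991 and 0.0203 FPKM in STO cells (difference 3.01 ± 0.04, SE; adjusted p = 1.3e-08, limma). Grin3a (chr4:49674483-49858641) had 8.80 and 9.83 FPKM in NSCs and 0.127, 0.0961 and 0.0722 FPKM in STO cells (difference 3.23 ± 0.06, SE; adjusted p = 3.6e-08, limma). Both were high in every NSC replicate and near 0 in every STO replicate. The Grin3a transcripts were divided differently in the NSC replicates, 8.80 and 0 FPKM in replicate 1 against 7.66 and 2.17 FPKM in replicate 2, so only their sum was used.

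The glutamate-binding GRIN2 subunits stayed under 1 FPKM in NSCs. Grin2c, the cerebellar and glial form, had 0.922 and 0.795 FPKM, Grin2b, the main embryonic form, 0.441 and 0.402 FPKM, and Grin2a, the main adult form, 0.233 and 0.167 FPKM. In STO cells Grin2a and Grin2b were listed at 0, and Grin2c had at most 0.0079 FPKM. Grin1 and Grin3a thus made up 39.7% ± 1.27 and 50.9% ± 2.84 of NMDA subunit FPKM in NSCs (SD, n = 2). Grin2d (chr7:53087853-53122051) was the exception and was higher in STO cells, at 1.71, 1.24 and 1.30 FPKM against 0.297 and 0.179 FPKM in NSCs (difference -0.96 ± 0.10, SE; adjusted p = 1.1e-04, limma). It was 91.8% ± 1.00 of the NMDA subunit FPKM of STO cells (SD, n = 3), in which Grin1 was near 0. Grin3b was listed at 0 in all samples, and its end overlaps Tmem259, which had a mean of 43.4 FPKM in NSCs and 48.8 FPKM in STO cells.

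The delta receptors bind cerebellins and act mainly as organizers of synapses rather than as glutamate-gated channels. Grid1 (chr14:35633322-36394301) had 8.28 and 8.16 FPKM in NSCs and was listed at 0 in all STO replicates (difference 3.21 ± 0.04, SE; adjusted p = 9.9e-09, limma). The groups were far apart.

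The metabotropic glutamate receptors fall into group I (with Grm5, coupled to phospholipase C), group II (Grm2 and Grm3) and group III (Grm4, Grm6, Grm7 and Grm8), and groups II and III inhibit adenylyl cyclase. A single gene of group I and a single gene of group II dominated in NSCs. Grm5 (chr7:94732678-95283573) had 34.5 and 36.1 FPKM in NSCs and was listed at 0 in STO cells (difference 5.18 ± 0.05, SE; adjusted p = 4.8e-09, limma), and its NSC values came from 1 of 2 listed transcripts. Grm3 (chr5:9485236-9725352) had 9.78 and 10.6 FPKM in NSCs and was also listed at 0 in STO cells (difference 3.48 ± 0.05, SE; adjusted p = 1.3e-08, limma). Grm2, the other gene of group II, was barely detected at 0.0479 and 0.0524 FPKM in NSCs and had 0, 0 and 0.0175 FPKM in STO cells. Grm5 made up 76.3% ± 0.377 and Grm3 22.0% ± 0.341 of metabotropic receptor FPKM in NSCs (SD, n = 2).

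Group III stayed under 1 FPKM. Grm4 had 0.630 and 0.713 FPKM in NSCs and was listed at 0 in STO cells. Grm7 went the other way, with 0.0380 and 0.0417 FPKM in NSCs and 0.389, 0.352 and 0.301 FPKM in STO cells, where it was 85.6% ± 7.98 of a family sum of 0.405 ± 0.0147 FPKM (SD, n = 3). Grm8 was listed at 0 in NSCs and had 0.0125, 0.0109 and 0.0564 FPKM in STO cells, and Grm6, the receptor of retinal ON bipolar cells, was listed at 0 in every sample.

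**Figure D2:**
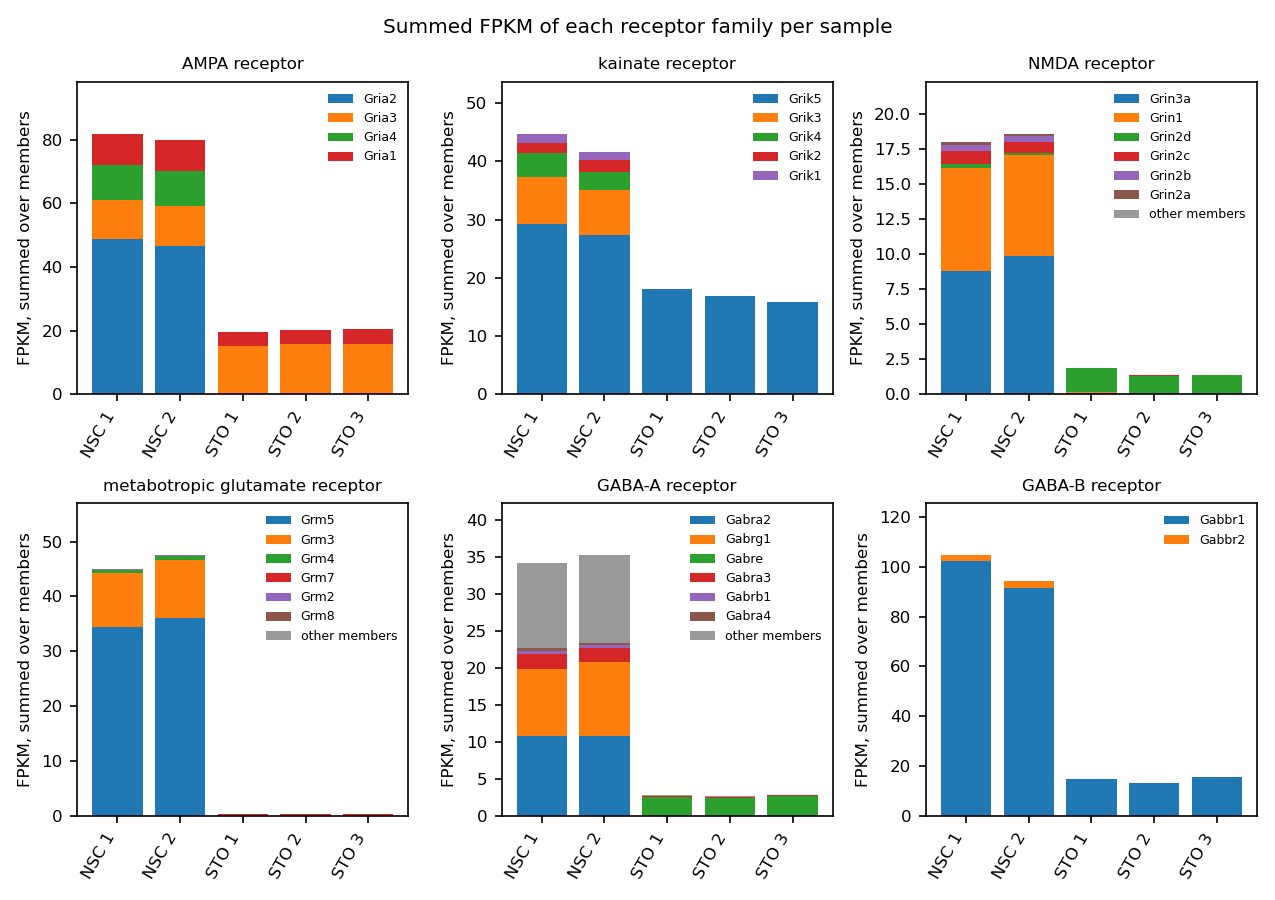
Summed FPKM of 6 receptor families in each NSC and STO replicate, each on its own axis from 0 and divided by member, with the remaining members of larger families shown as a grey sum. Gria3, Grik5, Grin2d, Gabre and Gabbr1 fill most of the STO bars of their families. Grik5 and Gabbr1 also fill most of the NSC bars, whereas other members fill most of the NSC bars of AMPA, NMDA and GABA-A receptors.

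GABA-A receptors are typically built of alpha, beta and gamma subunits, the last replaced by others in some receptors. In NSCs, an alpha and a gamma subunit of the same cluster were high. Gabra2 (chr5:71352296-71487088) had 10.8 FPKM in both NSC replicates, and Gabrg1 (chr5:71142286-71233856) had 9.00 and 10.0 FPKM. Both were listed at 0 in STO replicates 1, 2 and 3. Their differences were 3.56 ± 0.04 and 3.39 ± 0.06 (SE), with adjusted p-values of 7.3e-09 and 2.1e-08 (limma). They made up 31.2% ± 0.787 and 27.4% ± 1.44 of GABA-A subunit FPKM in NSCs (SD, n = 2). No test of the order between these genes was made.

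Gabra3 (chrX:69678015-69902258) was lower but still above 1 FPKM in NSCs, with 2.06 and 1.86 FPKM against 0.135, 0.193 and 0.113 FPKM in STO cells (difference 1.37 ± 0.05, SE; adjusted p = 1.1e-06, limma). The NSC values came from 1 of its 5 listed transcripts and the STO values from other listed transcripts with a start site upstream of it. Gabrb2, a subunit of the common adult receptor, had 0.0968 and 0.0401 FPKM in NSCs and 0.0184, 0.0321 and 0.0281 FPKM in STO cells. Gabra6 and Gabrd, known from cerebellar granule cells, were listed at 0 in all samples, as was Gabrp.

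Gabre (chrX:69502771-69520060), the epsilon subunit, was the GABA-A gene of the STO cells. It had 2.59, 2.41 and 2.66 FPKM there and 0.0114 and 0.0520 FPKM in NSCs, which rest on 1 and 5 implied fragments. The difference was -1.78 ± 0.05 (SE; adjusted p = 2.6e-07, limma), the only fall of at least 1 in log2(FPKM + 1) among the members in this fit. With a pseudocount of 0.1, with an equal FPKM sum or quantile normalization, and without NSC replicate 1 or STO replicate 2, Grin2d fell by at least 1 too. Gabre made up 93.1% ± 1.68 of GABA-A subunit FPKM in STO cells (SD, n = 3), without a beta subunit above 0.0321 FPKM in any STO replicate.

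GABA-A subunit genes lie in clusters on mouse chromosomes, and levels varied within them. On chromosome 5, Gabrg1 and Gabra2 had means of 9.51 and 10.8 FPKM in NSCs, while Gabra4 and Gabrb1, in the same cluster of 1386 kb, had 0.359 and 0.369 FPKM. On chromosome X, Gabre belonged to STO cells and Gabra3 to NSCs, and Gabrq had 0.281 and 0.176 FPKM in NSCs and at most 0.0203 FPKM in STO cells.

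**Figure D3:**
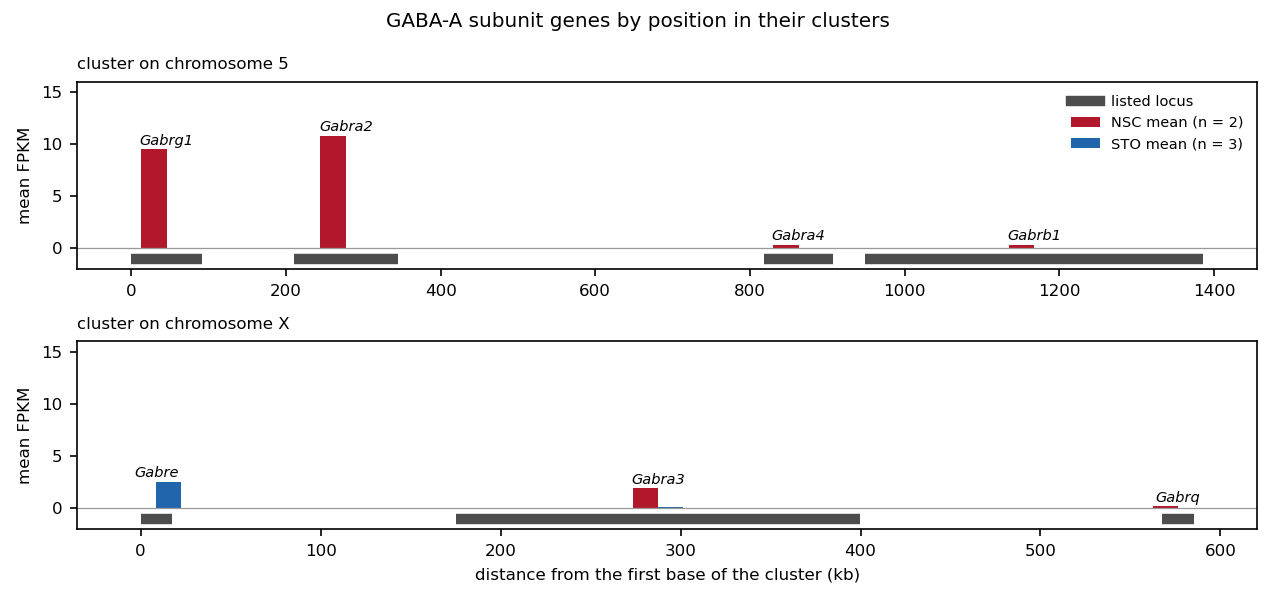
Mean FPKM of the GABA-A subunit genes in the clusters of chromosomes 5 and X by distance in kb from the first base of their cluster, with NSC (n = 2) and STO (n = 3) bars over grey bars for the listed loci. In the cluster of chromosome 5, Gabrg1 and Gabra2 at 9.51 and 10.8 FPKM in NSCs stand beside Gabra4 and Gabrb1 at 0.359 and 0.369 FPKM, and the only tall STO bar is Gabre.

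GABBR1 binds GABA and GABBR2 carries it to the cell surface and couples to G proteins. Gabbr1 (chr17:37182911-37211250) was the most abundant of all 47 genes in NSCs, with 102 and 91.4 FPKM, and had 15.0, 13.0 and 15.5 FPKM in STO cells. The ratio of means was 6.66 (difference 2.66 ± 0.09, SE; adjusted p = 5.4e-07, limma). Gabbr2 (chr4:46676770-47004586) had only 2.497 and 2.795 FPKM in NSCs and was listed at 0 in STO cells (difference 1.87 ± 0.05, SE; adjusted p = 1.7e-07, limma). Gabbr1 thus made up 97.3% ± 0.411 of GABA-B FPKM in NSCs (SD, n = 2), and in STO cells it was found without its partner.

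The other 24 members stayed under a mean of 1 FPKM in both cell types and were not tested. Of these, 8 were listed at 0 in every sample, among them Gabra6, Gabrd, Gabrp, Gabrr3, Grin3b and Grm6. In 14 of the other 16 every NSC value lay above every STO value, against 30.1% of the 5368 symbols that were likewise low and above 0 in a sample. In the other 2, Grm7 and Grm8, every STO value lay above, against 22.4% of those symbols. The highest NSC means among the 16 were those of Grin2c, Grm4, Grin2b, Gabrb1 and Gabra4. The rho subunits, known from the retina, were near 0, with Gabrr1 at 0.0283 and 0.0516 FPKM and Gabrr2 at 0.0874 and 0.0797 FPKM in NSCs. These rest on at most 5 implied fragments a sample.

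**Figure D4:**
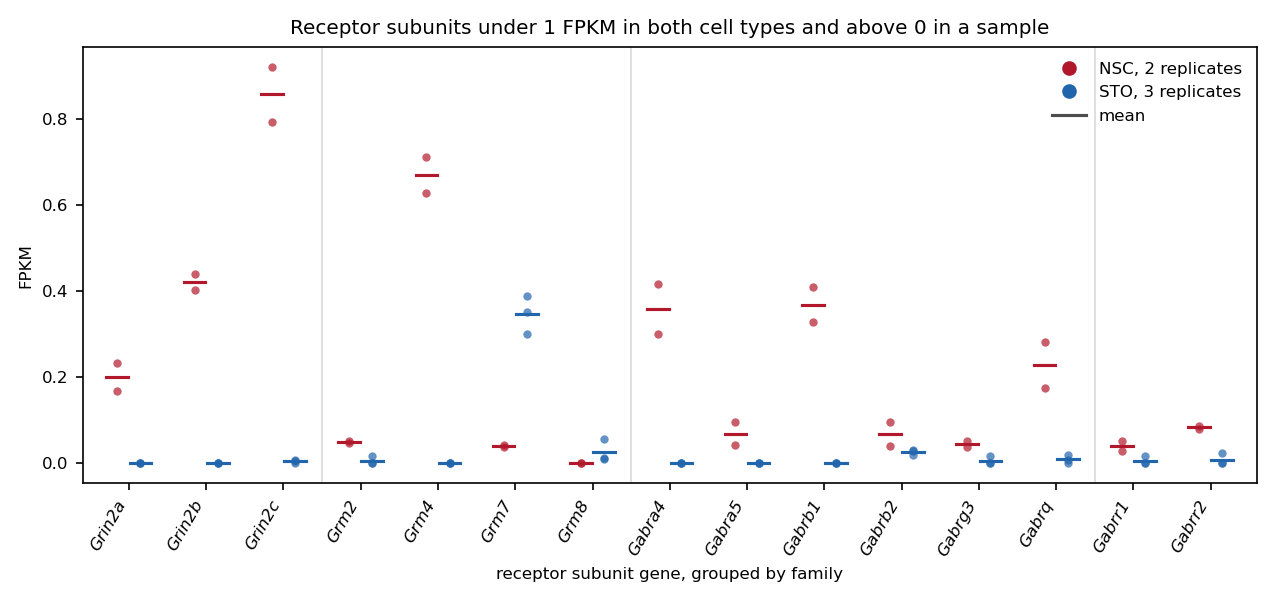
FPKM of 15 of the 16 members with a mean under 1 FPKM in both cell types and a value above 0 in a sample; each point is a replicate and each line a mean. NSC points lie above STO points for 13 genes, with Grin2c the highest, and STO points lie above for Grm7 and Grm8.

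The number of CpGs before the start sites is given here beside the level in NSCs, as a description. Of the members with a mean of at least 1 FPKM in NSCs, 11 had a window that starts within 50 bases of a listed transcript above 0 in NSCs, a limit chosen after the data were seen, and these held a median of 18 CpGs in 250 bases (range 1 to 37). The windows of Grik3 and Gabra3 lie 135 bases and at least 561 bases from the start of such a transcript, and were left out. They held 42 and 0 CpGs, and with them the median was still 18. The 5 with a window that were listed at 0 in all samples (Gabra6, Gabrp, Gabrr3, Grin3b and Grm6) held 1 to 4. Between these groups were 12 members with a window, under 1 FPKM in both cell types but above 0 in a sample. Those held a median of 10.5 and a range of 1 to 29, with the window of most CpGs taken per gene. The limit of 50 bases was not applied to these 12, so their windows and those of the 11 were not chosen alike. The window of Gabrb1 with 18 CpGs, for example, lies 42095 bases from the start of its listed transcript. All symbols in the promoter table had a median of 6. Gabbr2 held 37 and Gabrg1 held 1, and Gabre, the STO gene, held 21. No window was used here for 15 members, among them Gabrd, Gria1, Gria3, Grid1, Grik1, Grin2a, Grin2b, Grin3a, Grm4 and Grm5.

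RNAs for proteins that accompany AMPA, kainate and delta receptors were mostly higher in NSCs. Of the 20 genes listed, 16 were tested, of which 15 rose and 1, Neto2, was not called (33.7 against 31.5 FPKM, mean). Cacng4, an AMPA receptor regulatory protein, had 58.3 and 65.9 FPKM in NSCs and was listed at 0 in STO cells, as were Cacng5 (22.3 and 20.7 FPKM) and Frrs1l, an AMPA receptor assembly factor (17.0 and 16.6 FPKM). Cnih2, which exports AMPA receptors from the endoplasmic reticulum, had 71.3 and 86.3 FPKM in NSCs and 0, 3.50 and 0 FPKM in STO cells. Cacng2, stargazin, was near 0 at 0.0110 and 0.0603 FPKM in NSCs. The cerebellins Cbln1 and Cbln2, ligands of delta receptors, had 5.43 and 4.33 FPKM and 3.12 and 2.56 FPKM in NSCs.

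Of 18 scaffold genes, 15 were tested, 12 rose and 3 fell in NSCs. Dlgap3, Grip1, Dlgap1 and Shank3 had means of 29.3, 8.19, 7.13 and 5.05 FPKM in NSCs and of 0, 0.00840, 0.0803 and 0 FPKM in STO cells. The 3 that fell were Dlg1, Dlg3 and Homer3, with differences of -0.62, -1.32 and -0.59. Dlgap2, among the 12, was called lower with quantile normalization (0.34 as reported and -0.46 then). Of 11 genes for anchoring and trafficking of GABA receptors, 9 were tested and all 9 rose. Of these, Nlgn2 lost its call without NSC replicate 1 (0.42 as reported and 0.39 then), and Plcl1 lost it in 5 alternatives, with 0.24 as reported and -0.19 with quantile normalization. Gphn, gephyrin, which anchors GABA-A and glycine receptors, had means of 40.3 FPKM in NSCs and 10.5 FPKM in STO cells. Lhfpl4, a GABA-A auxiliary protein, had means of 15.5 and 0.0130 FPKM, and the GABA-B auxiliary Kctd12 4.57 and 0.0408 FPKM.

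Among 21 genes for making, loading, taking up and breaking down the transmitters, 14 were tested, 13 rose and 1 fell. Gls2, among the 13, was called lower with quantile normalization (0.29 as reported and -0.45 then). The vesicular transporters that mark transmitter release were near 0 in NSCs, with Slc17a6 listed at 0, Slc17a7 at 0.0973 and 0.0395 FPKM and Slc32a1 at 0.0113 and 0 FPKM. Gad1, which makes GABA, had 7.37 and 7.72 FPKM in NSCs and was listed at 0 in STO cells, whereas Gad2 had 0.170 and 0.119 FPKM. The GABA transporter Slc6a11 had 68.0 and 59.9 FPKM in NSCs and was listed at 0 in STO cells. The glutamate transporters Slc1a2 and Slc1a1 had means of 30.5 and 12.7 FPKM in NSCs and 0.0813 and 0 FPKM in STO cells.

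Of the 5 cation-chloride cotransporters, 2 rose and 3 fell in NSCs. With samples scaled to an equal FPKM sum, neither of the 2 that rose was still called; Slc12a4, with a difference of 0.23, was among them. Slc12a2, the chloride importer NKCC1, had 13.5 and 14.1 FPKM in NSCs and 33.5, 35.9 and 30.4 FPKM in STO cells (difference -1.21 ± 0.08, SE; adjusted p = 1.2e-05, limma). Slc12a5, the neuronal chloride exporter KCC2, had 0.703 and 0.494 FPKM in NSCs and 0.964, 1.13 and 1.05 FPKM in STO cells, and Slc12a7 had means of 0.857 and 14.2 FPKM. Of the enzymes that edit RNA from adenosine to inosine, Adarb1, which edits Gria2 transcripts, had 4.84 and 4.83 FPKM in NSCs and 3.12, 2.92 and 2.78 FPKM in STO cells (difference 0.57 ± 0.06, SE; adjusted p = 1.2e-04, limma). Adar was not called (12.6 against 12.7 FPKM, mean), although with samples scaled to an equal FPKM sum it was called lower at -0.19, and Adarb2 had 0 and 0.0332 FPKM in NSCs. Editing itself cannot be read from FPKM.

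Subunits of other transmitter-gated channels were mostly low. Of 30 genes for glycine, nicotinic, serotonin and purine receptors, 7 were tested, 5 rose and 2 fell in NSCs. P2rx7, an ATP-gated channel, had 19.1 and 25.3 FPKM in NSCs and 0.421, 0.538 and 0.318 FPKM in STO cells, and P2rx4 went the other way, with means of 3.37 and 16.5 FPKM. The nicotinic subunit Chrna4 had 12.3 and 13.4 FPKM in NSCs without Chrnb2, which was listed at 0, and the glycine receptor beta subunit Glrb had a mean of 13.7 FPKM with the alpha subunits Glra1, Glra2, Glra3 and Glra4 between 0 and 0.0411 FPKM. Of 7 genes for REST and its corepressors, 3 rose and 3 fell in NSCs, with Rcor1 at means of 10.2 and 23.4 FPKM and Rcor2 at 36.4 and 11.2 FPKM in NSCs and STO cells. These lists were not tested as sets, and each count is read against the 43.7% higher and 41.9% lower of all tested symbols.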

How the data were processed

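RNA-seq of NSCs (2 replicates) and STO cells (3 replicates) was examined. The authors made stranded mRNA libraries, aligned paired reads to mm9 with Hisat2, and deposited FPKM values with confidence bounds, also in FPKM, from Cufflinks 2.2.1 for 40201 RefSeq transcripts; whether counting used strand is not given in the sources used here. Of these, 39951 were matched to a symbol through RefSeq identifiers of GRCm38.p6 (names only), and FPKM was summed per symbol. Fragments were implied from the upper bound, taken as 2 SD of a Poisson count; these cover counting error only. Limma 3.58.1 in R 4.3.3 was run with a trend on log2(FPKM + 1), which understates changes of low genes, for symbols with a mean of at least 1 FPKM in a cell type, with a threshold of 0.05 on the adjusted p-value. The test was run on simulated data in which 200 of 12277 genes changed by 1 or 2 in log2(FPKM + 1). It called 84 of 88 and 109 of 112 of these with the right sign, and 6 of 12077 unchanged genes. In the real data 43.7% of tested symbols were called higher and 41.9% lower, a setting that the simulation does not cover.

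Members and lists were chosen with earlier results of these data known. All members were counted, and some genes are not reported by name here; from each list, at most the 4 largest differences with an adjusted p-value under 0.05, a size of at least 1 and no overlap were named, plus Slc12a2, Slc12a5, Gad1, Gad2, Slc17a6, Slc17a7, Slc32a1, Adar, Adarb1, Adarb2, Rest and cell type markers; other list genes were chosen after their values were seen. Microglia and endothelium markers summed to under 1 FPKM in every sample. Python 3.11.15, pandas 2.3.3, numpy 2.4.6 and matplotlib 3.10.9 were used. Alternatives changed the pseudocount, filter, scaling, trend and samples.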

Additional observations from a re-analysis of the deposited data

How the results depend on the processing

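All 23 tested members kept their direction and their side of the threshold in all 13 alternatives: a pseudocount of 0.1, no filter, a filter at 0.3 FPKM, scaling to an equal FPKM sum, quantile normalization, no trend, the replicate block, summing over overlapping loci only, and leaving out each replicate. Without a filter, 31 of the 39 members tested were higher in NSCs and 4 were lower. Of all 17645 symbols tested in that setting, 6551 were higher and 5912 lower. Some of these calls rest on few implied fragments, such as that of Gabrr2 on 5 in each NSC replicate. The count of members lower by at least 1 in log2(FPKM + 1) was 2 with a pseudocount of 0.1, with an equal FPKM sum and with quantile normalization, and 1 to 2 when a replicate was left out; the second was Grin2d, at -0.96 as reported. It was 2 without NSC replicate 1 and without STO replicate 2. Among the list genes, Plcl1, Nlgn2, Dlgap2 and Slc12a4 were called higher as reported and lost that call in at least 1 alternative, Dlgap2 and Gls2 turned lower with quantile normalization, and Adar and Hdac1 were called lower with an equal FPKM sum. For genes listed at 0 in STO cells, the size of the difference depends on the pseudocount, which the SE does not cover. Over the alternatives it was 5.55 to 8.90 for Gria2, 5.13 to 8.47 for Grm5 and 1.67 to 4.78 for Gabbr2. Scaling to an equal FPKM sum moved the median difference of all genes by -0.17. It also raised every value above 0, so the pseudocount and the filter weighed less, and 13131 symbols were tested. The effects of scaling, pseudocount and filter cannot be told apart in that alternative. Replicate numbers were not shown to pair the samples (correlation of deviations 0.0029 and 0.065 for equal numbers), and with the replicate block 20 members were higher and 3 lower, as without it; 5249 symbols in all were higher and 4988 lower. With values near 0, depth limits what can be said of the 24 untested members, and with 2 NSC replicates the spread is poorly known.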
